A study of Homo sapiens with 15 samples.

Results

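Human umbilical vein endothelial cells (HUVEC) given vesicles from a T cell leukaemia line were compared with HUVEC that received none. Of the 15 arrays of the series, 6 entered this comparison: 3 of untreated HUVEC, whose treatment is labelled none, and 3 of HUVEC kept for 6 h with JK exosomes. JK stands for Jurkat, a human T cell line grown in culture that carries the surface receptor CD47. Exosomes are small membrane-bound vesicles shed by cells. A further 3 arrays of HUVEC kept for 6 h with exosomes of JinB8, a CD47-deficient mutant of Jurkat, shared the spread estimate of the fit, and 3 arrays of RNA from JK exosomes are set beside the results. All 5 groups of the series hold 3 arrays each. The comparison was described across 18417 genes, each with 1 symbol in the platform annotation.

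Several features limit these groups as a model. The labels call HUVEC a cell line and leave unsaid whether replicates came from separate cultures, so p-values measure only the spread of these arrays, which may be technical. The exosomes were a kit precipitate of concentrated medium from T cells grown with human serum, taken up in water. The labels give no amount of exosomes per culture and describe no mock precipitate for the untreated cells. The treated cells were in EGM2, an endothelial growth medium, and the sources used here do not give the medium and hours of the untreated cells. With 3 arrays against 3, the smallest p of an exact permutation test (two-sided) is 0.1, so the tests below rest on limma, which shares its estimate of spread over all genes.

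Endothelial cells line blood vessels and switch between a resting and an activated state. In the activated state the NF-kB transcription factors drive adhesion molecules, chemokines and clotting factors that recruit leukocytes. The hypoxia-inducible factors raise glucose transport, glycolysis and vascular growth factors when oxygen is short, and the FOXO factors act when growth factor signalling through AKT is low. Notch and BMP signalling set arterial, venous and sprouting identities, and the actin cytoskeleton feeds back on transcription through serum response factor. The gene groups below follow these roles.

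The groups did not stand on a common level as deposited. Array medians averaged 6.97 ± 0.06 (SD, n = 3) on the log2 scale in untreated HUVEC and 5.14 ± 0.03 with JK exosomes, and the interquartile ranges averaged 3.15 and 3.37. The arrays with JINB8 exosomes averaged 5.11, as did JK exosome RNA. Quantile normalization over the 9 HUVEC arrays, which gives every array the same distribution, removed this shift. All levels and folds below are on that scale unless called deposited, and they are relative to the shift: a gene called higher rose relative to the other genes of its array. Because the untreated arrays stood apart as a set, batch and treatment cannot be told apart. As deposited, the median gene had a log2 fold change of -1.68, with 30 genes higher and 18289 lower.

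**Figure D1:**
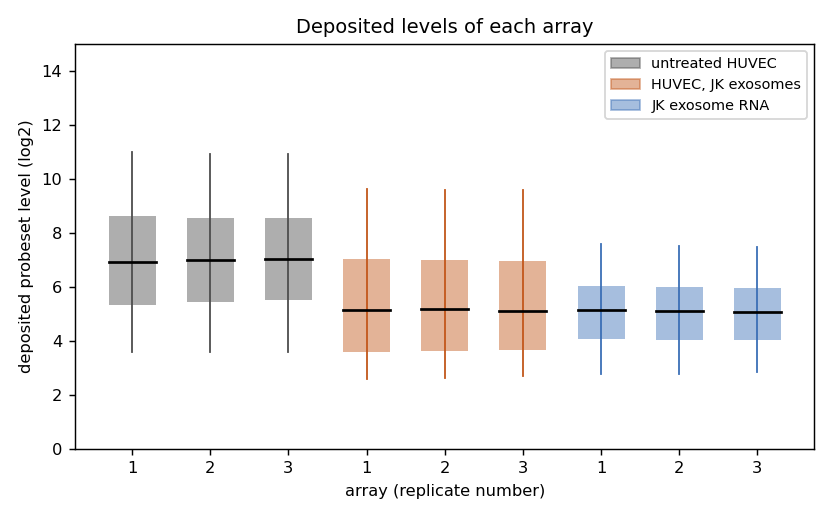
Deposited log2 levels over all probesets of each array, for untreated HUVEC, HUVEC with JK exosomes and JK exosome RNA, with 3 arrays each. Boxes span the middle 50% of probesets, black lines are medians and thin lines run from the 5th to the 95th percentile; the untreated arrays sit near a median of 6.97 and the other 6 near 5.1.

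After normalization 8950 of 18417 genes passed (limma, Benjamini-Hochberg adjusted p under 0.05), which is 48.6% of the genes tested. With JK exosomes 4829 were higher (26.2% of all genes) and 4121 were lower (22.4%). Other scalings moved that split: it was 6462 higher and 3587 lower with median centring of each array, 5851 and 1490 with centring on olfactory receptor genes, and 4606 and 4739 with cyclic loess. Below, "every scaling" means quantile normalization and these 3, and leaves out the deposited values. With olfactory receptor centring GARS1, MMP14, NFE2L2, SPHK1, SQLE and ST3GAL6, all named below, did not pass. The values of the 3 treated and the 3 untreated arrays did not overlap for 10329 genes (56.1%), 5554 higher and 4775 lower. Of the genes that passed, 8653 did not overlap and 297 did. The counts of list members below are to be read against the shares of all genes, 26.2% higher and 22.4% lower.

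Most of the changes were small. The median size among genes that passed was 0.49 on the log2 scale, and the smallest was 0.19. At least 2-fold changes were reached by 1054 genes (5.72% of those tested), 418 higher and 636 lower. At 4-fold the counts were 28 higher and 95 lower, and at 8-fold 2 higher and 27 lower. At 16-fold there were 0 higher genes and 4 lower ones, TAGLN, CD34, FST and KRT7. The large changes were thus mostly falls, while the counts of small ones leaned slightly to rises on this scale. Of the 1054 genes, 1052 were called in the same direction with median centring, 1054 with cyclic loess and 1042 with olfactory receptor centring, and 0 changed sign in any of these 3.

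**Figure D2:**
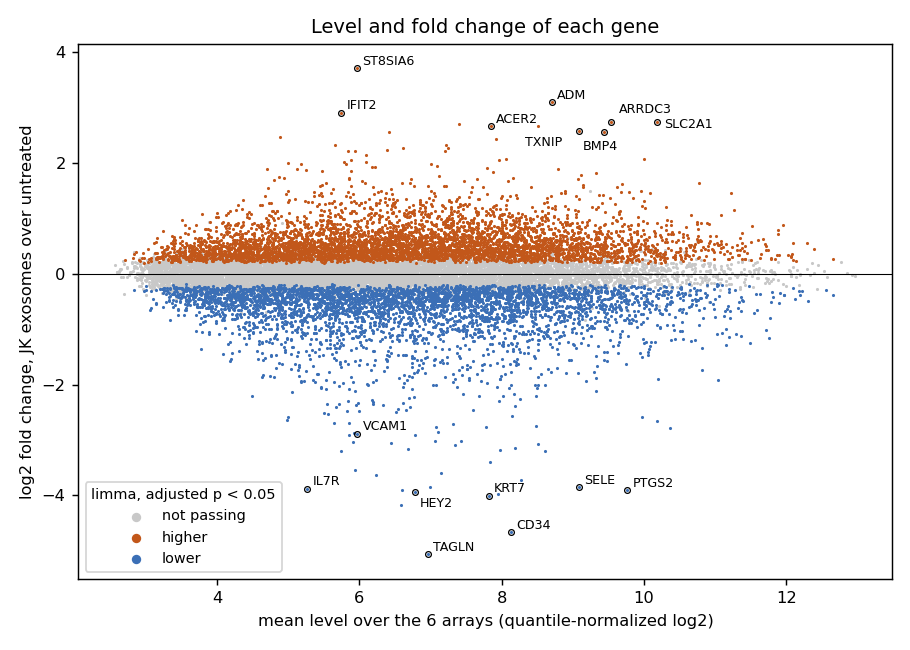
Mean quantile-normalized log2 level over the 6 arrays (horizontal) against log2 fold change of JK exosomes over untreated (vertical), 1 point per gene, coloured by limma's call. The largest falls, such as TAGLN at -5.06 and CD34 at -4.67, exceed the largest rise, ST8SIA6 at 3.70.

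The table has no detection calls, so a floor was taken from genes that endothelial cells are not known to use. The 95th percentile of 341 olfactory receptor genes lay at 5.44 in untreated arrays and at 5.24 with JK exosomes. Above it stood 11718 and 12372 genes. Of the 418 genes that were higher at least 2-fold, 290 were above the floor in both groups and 128 were not above it in untreated cells. Of the 636 lower ones, 431 were above it in both groups and 205 were not above it with JK exosomes. Fold changes of genes with a group at or below the floor are uncertain in size. Among the 5694 genes at or below the floor in both groups, 33.9% still passed, against 53.4% of the 11367 above it in both.

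The share that passed also rose with signal, from 34.25% in the lowest quartile of genes by mean level to 59.3% in the highest. The olfactory receptor genes themselves gave 21 higher and 84 lower calls, with a median log2 fold change of -0.14, against 0.02 for all genes. That median turned to 0.03 with olfactory receptor centring. OR14C36 had the smallest p among them, at a mean of 5.43 untreated and 3.86 with JK exosomes, both at or below the floor. Calls on genes of this level therefore occur in families without a known use in these cells.

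The labelled cell type was checked on marker genes. All 10 endothelial markers (PECAM1, CDH5, TEK, TIE1, VWF, EMCN, CLDN5, ESAM, ERG and KDR) stood above the floor in both, and their mean level ran from 10.04 to 10.18 over the untreated arrays and from 10.04 to 10.19 over the treated ones. CDH5, the cadherin of endothelial junctions, averaged 12.01 untreated and 12.07 with JK exosomes, and TEK, the angiopoietin receptor, 9.61 and 9.60. Neither passed, although with median centring they were higher by 0.80 and 0.34 and did. PECAM1 rose by 0.35 (2.25 at its other probeset) and ERG, an endothelial transcription factor, by 0.61, while ESAM changed by -0.49 and KDR, the main VEGF receptor, by -1.03 ± 0.29. With median centring these 2 falls shrank to -0.22 and -0.57 and no longer passed, and as deposited PECAM1 and ERG were at -0.71 and -0.80. In the longer list of 29 endothelial identity genes 10 rose and 8 fell, with a median of -0.00 on the main scale and 0.39 with median centring.

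Most markers of the T cells that gave the exosomes were below the floor in both groups. Their mean level over 10 genes was 4.73 to 4.82 in untreated arrays and 4.66 to 4.71 in treated ones, and 2 of the 10 were above the floor in each group. CD7 stood above it in both, at 7.69 untreated and 7.73 with JK exosomes, LCK in untreated cells alone (5.57 and 5.12) and CD5 at its edge (5.25 and 5.24). CD2, CD3D, CD3E, CD3G, CD247, ZAP70 and PTPRC were below it in both. CD3D averaged 4.37 untreated and 4.19 with JK exosomes on the quantile scale. In JK exosome RNA it averaged 6.52 on the deposited scale, below the floor of 6.82 there. Of the 10 markers 2 were above that floor in exosome RNA, CD7 at 7.71 and LCK at 6.89. In the longer list of 25 T cell genes 5 were higher and 4 lower; GATA3, which endothelial cells also use, rose by 0.85 (-0.82 as deposited). Of 9 mural and fibroblast markers 4 were above the floor in each group, among them RGS5 at 11.01 and 10.57, which passed as lower here but was 0.04 higher with median centring. Myeloid markers gave 3 and 2 of 6, epithelial ones 2 and 2 of 6 measured. The mean over the myeloid markers was 5.70 to 5.87 in untreated arrays and 5.39 to 5.48 in treated ones, with 5 of 6 passing as lower and 1 as higher; the part of other cells in the results was not tested. In bulk RNA, fewer cells of a type and less RNA per cell cannot be told apart.

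Replicates differed little. The SD of log2 differences between JK replicates 1 and 2 was 0.16, against 0.24 and 0.25 for each of them with replicate 3, and 0.21 to 0.24 among untreated arrays. Only 3 genes differed by more than 1 log2 unit between JK replicates 1 and 2, but 64 and 78 did between these and replicate 3. JK replicate 3 was the high array for interferon-stimulated genes and ADM and the low one for SELE and TXNIP, as the values below show.

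Genes of endothelial activation that passed were mostly lower with JK exosomes. Of 15 leukocyte adhesion molecules 10 fell and 2 rose, with a median log2 fold change of -0.71. The highest member was SELP (P-selectin) at 1.53, and 1 member rose at least 2-fold. As deposited all 15 were lower. Of 18 chemokines 12 fell and 1 rose (median -0.50), of 16 cytokines and colony stimulating factors 7 fell and 1 rose (-0.25), and of 21 NF-kB subunits and feedback regulators 14 fell and 1 rose (-0.54). The median of all genes was 0.02. All 4 medians stayed negative under every scaling, but the adhesion median shrank to -0.22 with median centring and -0.09 with olfactory receptor centring. With the latter, 6 adhesion molecules were lower and 3 higher, and 6 and 4 NF-kB genes (median -0.24). Beyond 2-fold were 6 lower adhesion molecules, 7 chemokines, 6 cytokines and 5 NF-kB genes.

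SELE, the E-selectin that slows rolling leukocytes, stood at 11.10, 10.83 and 11.09 in untreated arrays and at 7.52, 7.48 and 6.47 with JK exosomes. The groups lay far apart and JK replicate 3 was lowest. The difference was -3.85 ± 0.37 (SE; adjusted p = 9.35e-06), 14.4-fold lower. VCAM1, the ligand of the integrin VLA-4, gave 7.52, 7.18 and 7.52 untreated and 4.45, 4.55 and 4.57 treated, where it was below the floor. It fell by 2.88 ± 0.10 on the log2 scale. CD34, a sialomucin that is both an endothelial marker and a selectin ligand, fell from 10.56, 10.47 and 10.37 to 5.84, 5.69 and 5.86, a 25.4-fold difference that left it just above the floor. PODXL, a related sialomucin, changed by -1.34 ± 0.08, from 11.53, 11.47 and 11.43 to 10.09, 10.16 and 10.17.

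CXCL8, the neutrophil chemoattractant interleukin-8, stood at 9.54, 9.42 and 9.74 in untreated arrays and at 6.46, 6.07 and 6.64 with JK exosomes, 9.07-fold lower (-3.18 ± 0.14). CXCL12, which retains progenitor cells through CXCR4, changed by -2.64 ± 0.14 and CCL20, a chemoattractant of lymphocytes and dendritic cells, by -1.87 ± 0.12. Both fell to levels below the floor. Of the cytokines, KITLG (stem cell factor) fell from 8.90, 8.95 and 8.84 to 6.05, 5.76 and 5.58. The alarmin IL1A went from 8.01, 7.85 and 8.07 to 5.16, 4.84 and 4.75, below the floor in the treated cells. TNFSF4, the OX40 ligand, changed by -2.85 ± 0.16.

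Receptors followed less uniformly: of 21 cytokine receptors 9 fell and 5 rose, with a median of -0.21 that turned to 0.08 under olfactory receptor centring. IL7R, the interleukin-7 receptor, changed by -3.88 ± 0.16 and ended below the floor. IL1RL1, the interleukin-33 receptor ST2, fell from 8.80, 8.81 and 8.86 to 6.55, 6.41 and 6.12, still above it. IL17RA changed by -1.21 ± 0.07. Among NF-kB feedback genes TRAF1 had the largest change (-2.09 ± 0.10) and ended below the floor. BIRC2, an inhibitor of apoptosis in the TNF receptor complex, and the NOD pathway kinase RIPK2 changed by -1.05 ± 0.09 and -1.04 ± 0.09.

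PTGS2, the inducible cyclooxygenase, stood at 11.65, 11.78 and 11.73 in untreated arrays and at 7.79, 7.75 and 7.89 with JK exosomes. The difference had a narrow error (-3.91 ± 0.08, adjusted p = 1.38e-10). PTGIS, which makes prostacyclin from the product of cyclooxygenase, changed by -2.07 ± 0.09 and ended below the floor. The wider set of 24 genes for vasoactive peptides and prostanoids showed no common direction, with 6 higher and 6 lower.

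Promoters of 3 of these genes are shown because a binding motif of NF-kB type is part of what is known of them. The 250 bases before the start site are taken from RefSeq on GRCh38.p14, written 5′ to 3′ on the gene's strand. SELE lies at chr1:169734080-169734329 on the minus strand, VCAM1 at chr1:100719492-100719741 and CXCL8 at chr4:73740319-73740568, both on the plus strand. Capitals mark GGNNNTTCC on either strand.
SELE: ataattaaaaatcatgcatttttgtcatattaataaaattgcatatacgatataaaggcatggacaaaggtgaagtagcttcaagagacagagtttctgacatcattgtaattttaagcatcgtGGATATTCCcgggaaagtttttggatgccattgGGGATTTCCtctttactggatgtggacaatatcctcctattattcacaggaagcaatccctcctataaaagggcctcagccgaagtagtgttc
VCAM1: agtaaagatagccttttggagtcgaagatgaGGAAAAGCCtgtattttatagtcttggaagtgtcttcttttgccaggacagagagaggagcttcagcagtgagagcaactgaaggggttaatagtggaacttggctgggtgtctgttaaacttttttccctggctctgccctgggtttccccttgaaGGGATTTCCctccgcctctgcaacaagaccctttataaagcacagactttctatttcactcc
CXCL8: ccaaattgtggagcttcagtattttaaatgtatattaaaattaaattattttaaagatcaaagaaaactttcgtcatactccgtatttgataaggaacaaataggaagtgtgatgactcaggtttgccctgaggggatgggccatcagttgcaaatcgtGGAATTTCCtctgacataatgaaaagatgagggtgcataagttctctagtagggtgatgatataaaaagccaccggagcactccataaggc

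The SELE stretch holds 2 matches, starting 126 and 93 bases before the start site. VCAM1 holds 2, at 219 bases on the opposite strand and at 62, and CXCL8 holds 1 at 91, which reads on both strands. In windows from 250 bases before to 50 after the start, 18 of 33 lower members of the 4 inflammatory lists held a match (54.5%), as did 24 of all 52 measured members with a window (46.2%). The share was 21.9% of all measured genes and 20.1% of all promoters in the table. Genes lower at least 2-fold held it in 24.3% of windows and genes higher at least 2-fold in 24.3%. PTGS2 and IL1A held none in the window searched. A match is a run of letters, not a bound site.

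Genes of clotting and clot dissolution also fell. Of 17 measured, 12 were lower and 2 higher, with a median of -0.64 that stayed negative under every scaling (-0.31 with olfactory receptor centring, with 6 lower and 4 higher). PLAU, the urokinase plasminogen activator, stood at 9.34, 9.45 and 9.34 untreated and between 6.90 and 7.07 with JK exosomes, 5.22-fold lower. Its receptor PLAUR went from 9.62, 9.78 and 9.43 to 7.59, 7.65 and 7.58, 4.02-fold lower. Both sets of arrays were tight. TFPI, the inhibitor of tissue factor, moved the other way, from 9.64, 9.84 and 9.67 to 10.81, 10.94 and 10.99 (1.20 ± 0.09), though as deposited its change was -0.17.

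**Figure D3:**
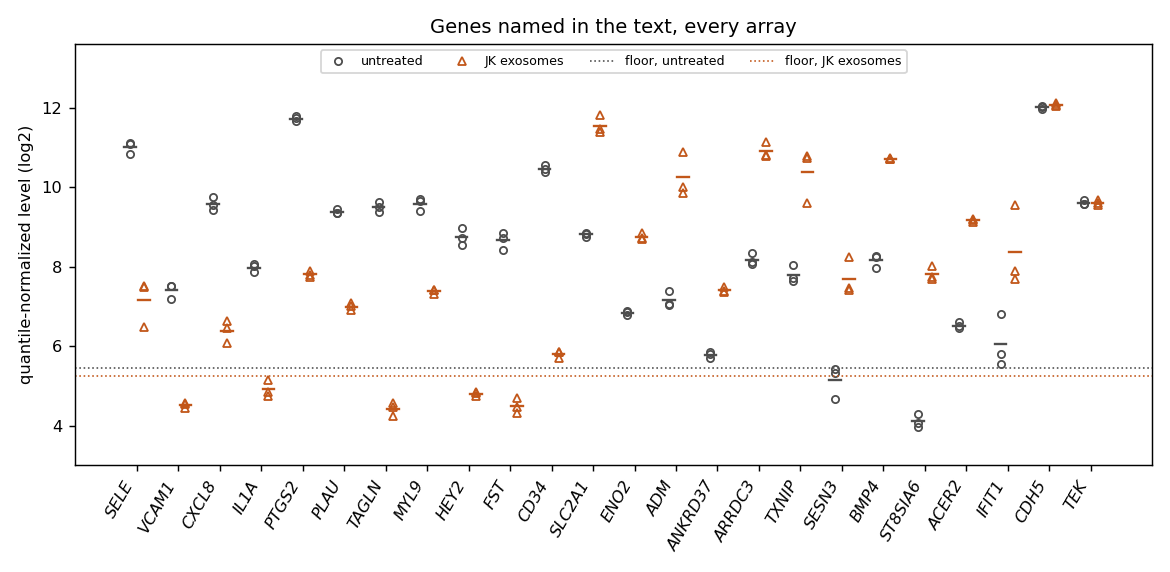
Quantile-normalized log2 level of 24 genes on each of the 3 untreated arrays (circles) and the 3 arrays with JK exosomes (triangles), with group means as bars and the floor of each group as a dotted line. The endothelial markers CDH5 and TEK overlap between groups. The other 22 genes do not, nor do 56.1% of all genes. Those 22 were named by rules that asked for non-overlap or a small p.

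Genes of the contractile cytoskeleton, many of them targets of serum response factor, were lower: 15 of 20 fell and 1 rose, with a median of -0.67 that kept its sign under every scaling (-0.24 with olfactory receptor centring, with 8 lower and 5 higher). TAGLN, the actin-binding protein transgelin, had the largest fall of the naming rule. It stood at 9.62, 9.49 and 9.36 in untreated arrays and at 4.48, 4.56 and 4.24 with JK exosomes, a difference of -5.06 ± 0.10 or 33.5-fold, and ended below the floor. MYL9, a regulatory light chain of myosin, went from 9.41, 9.71 and 9.65 to 7.32, 7.42 and 7.40. VCL (vinculin), which ties actin to focal adhesions, went from 10.36, 10.34 and 10.33 to 8.95, 8.90 and 8.87. The CArG box of serum response factor occurred in 6 of 17 windows of this list (35.3%), in 3 of the 12 lower ones, and in 1.22% of all measured genes. Immediate early genes, which share that factor, gave 12 lower and 3 higher of 23 (median -0.28, negative under every scaling). FOSL1, a FOS-family factor, changed by -1.31 ± 0.09, the nuclear receptor NR4A1 by -1.20 ± 0.08 and the zinc finger factor KLF6 by -1.13 ± 0.09.

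The feedback inhibitors of receptor tyrosine kinase signalling fell in part, with 9 of 21 MAPK feedback genes lower and 5 higher (median -0.26, and 0.07 with olfactory receptor centring). SPRY4 fell from 7.99, 7.67 and 7.68 to 5.83, 5.85 and 5.41. SPRY2 and SPRED1, of the same Sprouty and Spred families, changed by -1.08 ± 0.09 and -1.04 ± 0.14. Among VEGF and angiopoietin genes, 8 of 21 were lower and 5 higher, against 4 and 7 with median centring and 3 and 6 with olfactory receptor centring. PDGFA, a growth factor for mural cells, changed by -1.72 ± 0.12 and PGF, the placental growth factor, by -1.12 ± 0.10. ANGPTL4, a secreted lipase inhibitor that hypoxia also raises, went up from 8.97, 8.96 and 8.87 to 10.37, 10.33 and 10.53; as deposited its change was 0.03 and did not pass.

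Notch genes were mixed, with 8 of 19 lower, 6 higher and a median of -0.16 that turned positive under both centrings. HEY2, an arterial Notch target, stood at 8.98, 8.54 and 8.72 untreated and at 4.81, 4.85 and 4.75 with JK exosomes, 15.4-fold lower and below the floor. Its relative HEY1 changed by -2.48 ± 0.14, also to below the floor. The ligand JAG1 went from 10.24, 10.30 and 10.28 to 8.65, 8.67 and 8.77. The ligand DLL4, named after its value was seen, was the highest member and the only one to rise at least 2-fold, from 6.83, 6.92 and 6.80 to 8.47, 8.38 and 7.83 (1.38 ± 0.19, -0.28 as deposited). SOX17, an arterial transcription factor, changed by -1.04 ± 0.10, and MMRN2, a matrix protein of vessels, by 1.36 ± 0.09 (-0.10 as deposited).

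Genes of BMP and activin signalling moved in opposed ways. Of 25, 13 were lower and 5 higher, with a median of -0.43. With median centring 11 were lower and 9 higher, and with olfactory receptor centring 7 and 9, while the median stayed negative (-0.30 and -0.17). The ligand BMP4 rose from 8.27, 7.96 and 8.25 to 10.71, 10.73 and 10.72, with almost no spread among treated arrays (2.56 ± 0.09, 5.88-fold). GDF3, a further ligand of the family, stood at 6.74, 8.03 and 6.76 and then at 9.43, 9.47 and 10.65, a change of 2.67 ± 0.41 on more variable arrays. FST, the secreted inhibitor of activins, fell from 8.85, 8.42 and 8.71 to 4.46, 4.71 and 4.32, 18.0-fold lower and below the floor. FSTL3, a relative of FST, changed by -2.26 ± 0.08. Of these 4 genes, the ligands rose and the antagonists fell. They were picked by rank or small p, and at least 2-fold 3 members of the list rose and 7 fell. Ligands and antagonists were not compared over the whole list.

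In the TGF-beta set 7 of 14 genes were lower and 3 higher, with a median of -0.30 (0.05 with olfactory receptor centring). TGFBI, a matrix protein induced by TGF-beta, fell from 9.11 ± 0.09 (SD, n = 3) to 6.75, 6.92 and 6.75. The type I receptor TGFBR1 changed by -1.63 ± 0.07 and the co-receptor TGFBR3 by 1.58 ± 0.13 (-0.16 as deposited). The receptors of the pathway therefore did not move together.

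Matrix and adhesion genes were split by family. Collagens gave 12 lower and 3 higher of 43, but 5 and 4 with olfactory receptor centring (median -0.11, then 0.01). On the main scale 34.9% of collagens passed, against 48.6% of all genes. COL12A1 changed by -2.05 ± 0.10, and the basement membrane chains COL4A1 and COL4A2 by -1.77 ± 0.17 and -1.56 ± 0.16. The laminin and basement membrane list had 4 higher and 6 lower of 15 and a median of 0.02 (-0.11 with cyclic loess), and 8 higher and 2 lower with median centring. Its smallest p-values were rises: NID1 by 0.91 ± 0.11, LAMC1 by 0.59 ± 0.07 and LAMA4 by 0.53 ± 0.09, all negative as deposited. The lowest value of the list, -0.93 in another member, was larger in size than these rises. FBLN5, an elastic fibre protein, fell from 9.50, 9.60 and 9.48 to 6.12, 6.05 and 6.22, 10.5-fold. Of 25 integrins 8 fell and 6 rose, against 7 and 9 with median centring. ITGA4, the alpha chain of VLA-4, went from 8.05, 8.17 and 7.89 to 4.30, 4.49 and 4.45, below the floor, and ITGB8 changed by -1.91 ± 0.16. ITGB5 rose by 1.00 ± 0.08 (-0.42 as deposited). TIMP3, an inhibitor of metalloproteinases, rose by 1.49 ± 0.11 (-0.24 as deposited), though its other probeset changed by 0.10 ± 0.12 and did not pass, and MMP14, the membrane-type metalloproteinase, changed by -0.88 ± 0.07.

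Guidance molecules showed 19 lower and 11 higher of 66, against 10 and 12 with olfactory receptor centring. SEMA3D, a repulsive semaphorin, fell from 8.60, 8.64 and 8.46 to 5.54, 5.37 and 5.73, and SEMA3A, of the same class, changed by -2.06 ± 0.14 to below the floor. EFNA1, an ephrin induced by cytokines and hypoxia, rose from 7.36, 7.15 and 7.36 to 9.09, 8.96 and 9.02; as deposited its change was 0.13 and did not pass. Other steep falls by the naming rule were those of KRT7, a keratin of simple epithelia (9.97, 9.65 and 9.83 to 6.01, 5.88 and 5.53), and CCNA1, the germline A-type cyclin (-3.90 ± 0.13, to below the floor). CHRNA1, a subunit of the muscle acetylcholine receptor, and LRRC17, a leucine-rich repeat protein, changed by -3.84 ± 0.12 and -3.55 ± 0.11 to below the floor. The secreted CYTL1 (-3.73 ± 0.09) and SHISA3 (-3.59 ± 0.17), an inhibitor of WNT and FGF receptors, stayed above it.

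Glucose uptake and glycolysis genes were higher with JK exosomes. Of 24 measured, 19 rose and 4 fell, with a median of 0.62, and 8 rose at least 2-fold. Hypoxia-responsive genes outside glycolysis gave 21 higher and 3 lower of 30, with a median of 0.66 and 10 at least 2-fold. The medians were 0.98 and 0.97 with median centring, 0.58 and 0.58 with cyclic loess, and 1.11 and 1.10 with olfactory receptor centring. As deposited they were -0.80 and -0.81, above the -1.68 of all genes.

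SLC2A1, the main glucose transporter of endothelium, stood at 8.83, 8.75 and 8.85 in untreated arrays and at 11.38, 11.46 and 11.80 with JK exosomes. The fold was 6.65. SLC2A3, a second glucose transporter, rose from 7.85, 7.80 and 7.86 to 9.65, 9.85 and 9.70. ENO2, the neuronal enolase isoform, went from 6.85, 6.88 and 6.79 to 8.70, 8.72 and 8.85. These values had errors of 0.08 for the latter pair of genes and 0.13 for SLC2A1.

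ADM, which encodes the vasodilator adrenomedullin, rose from 7.06, 7.04 and 7.38 to 10.01, 9.86 and 10.88. JK replicate 3 was the highest. AK4, a mitochondrial adenylate kinase, went from 6.59, 6.99 and 6.52 to 8.99, 9.04 and 9.39, a change of 2.44 against 0.79 at its other probeset, and ANKRD37, a small ankyrin protein, from 5.79, 5.70 and 5.84 to 7.36, 7.39 and 7.50 (-0.14 as deposited). VLDLR, a lipoprotein receptor counted below with the ATF4 list, rose from 5.53, 5.56 and 5.32, near the floor, to 7.54, 7.74 and 7.95. Not every member of the hypoxia list rose: NDRG1, a stress gene that hypoxia commonly raises, fell from 10.04, 10.20 and 9.95 to 8.56, 8.56 and 8.60. The histone demethylases KDM3A and KDM4C, enzymes that need oxygen, rose by 0.89 ± 0.09 and 1.10 ± 0.12, with -0.69 and -0.66 as deposited.

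The promoters of ANKRD37 (chr4:185396591-185396840), AK4 (chr1:65147302-65147551) and ENO2 (chr12:6914330-6914579), all on the plus strand, are shown because the hypoxia-inducible factors bind the core ACGTG. Capitals mark that core on either strand in the 250 bases before the RefSeq start on GRCh38.p14; CACGTG holds it on both.
ANKRD37: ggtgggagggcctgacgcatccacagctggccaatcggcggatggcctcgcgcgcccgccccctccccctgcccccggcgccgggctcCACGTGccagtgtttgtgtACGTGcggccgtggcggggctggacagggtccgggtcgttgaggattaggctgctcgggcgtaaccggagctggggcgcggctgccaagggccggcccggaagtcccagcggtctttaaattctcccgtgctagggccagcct
AK4: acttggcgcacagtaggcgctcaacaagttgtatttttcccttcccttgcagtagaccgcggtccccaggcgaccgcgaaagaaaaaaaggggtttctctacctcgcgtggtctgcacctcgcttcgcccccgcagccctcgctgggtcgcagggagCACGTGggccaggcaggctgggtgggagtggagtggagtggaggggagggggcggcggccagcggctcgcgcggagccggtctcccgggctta
ENO2: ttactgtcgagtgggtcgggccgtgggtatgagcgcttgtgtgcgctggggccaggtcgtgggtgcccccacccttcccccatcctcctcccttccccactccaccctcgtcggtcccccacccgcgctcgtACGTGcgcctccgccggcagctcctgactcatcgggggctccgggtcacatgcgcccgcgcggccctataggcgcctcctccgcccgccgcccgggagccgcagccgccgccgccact

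ANKRD37 holds the core 162 and 143 bases before its start, AK4 at 93 and ENO2 at 118, the 162 and 93 positions lying in a CACGTG. Of the higher members of the glycolysis and hypoxia lists, 18 of 35 with a window held ACGTG (51.4%), as did 22 of all 46 measured members (47.8%). The share was 24% of all measured genes and 21.6% of all promoters in the table. Among genes higher at least 2-fold it was 27.7%, and among genes lower at least 2-fold 21.5%. ADM and SLC2A1, which rose more than these genes did, held no ACGTG in the window searched. Other letters that the factors may bind were not searched. E-box matches (CACGTG) overlap the core by construction.

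FOXO factors and their targets were higher, with 14 of 25 up and 2 down (median 0.46, positive under every scaling). SESN3, a stress-induced regulator of TORC1, rose from 5.32, 5.43 and 4.66, at or below the floor, to 7.45, 7.40 and 8.23. DDIT4, another TORC1 inhibitor, rose by 1.59 ± 0.10, the factor FOXO4 by 0.89 ± 0.07 and PNRC1, a nuclear receptor coactivator, by 0.85 ± 0.08. CDKN1B, the cyclin-dependent kinase inhibitor p27, rose by 0.89 ± 0.09. As deposited these last 4 were -0.12, -0.87, -0.66 and -0.75. The forkhead motif GTAAACA was in 3 of the 14 higher members' windows, in 3 of all 25 members' (12%) and in 2.45% of all measured genes.

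The alpha-arrestins, adaptors that draw glucose transporters and receptors into the cell, had 5 measured members. ARRDC3 rose from 8.33, 8.11 and 8.06 to 10.79, 10.82 and 11.12, 6.69-fold. TXNIP, which binds thioredoxin and responds to glucose, rose from 8.03, 7.73 and 7.64 to 10.78, 10.74 and 9.59. JK replicate 3 lay over 1 unit below the other treated arrays. ARRDC4 rose by 0.79 ± 0.12 (-1.05 as deposited). ARRDC1 and ARRDC2 had changes of 0.05 ± 0.09 and 0.02 ± 0.09, did not pass and overlapped between groups. Of these 5, 3 were higher and 0 lower. ARRDC5 was not analysed here.

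Interferon-stimulated genes were higher in part: 14 of 32 rose and 5 fell, with a median of 0.24 that was positive under every scaling. Yet the mean level of the list overlapped between groups, at 7.14 to 7.62 over untreated arrays and 7.51 to 8.03 over treated ones. Relative to all genes the median was 0.22, less than the spread between arrays (0.49). IFIT2, which binds foreign RNA, stood at 4.66, 4.21 and 4.01, below the floor, in untreated arrays and at 6.87, 6.71 and 8.01 with JK exosomes. IFIT1 stood at 6.81, 5.55 and 5.80 and at 7.88, 7.69 and 9.56. In both, JK replicate 3 was more than 1 unit above its fellows, and without it the change of IFIT1 went from 2.32 ± 0.45 to 1.72, still passing, while as deposited it was 0.56 and did not pass. HERC5, an ISG15 ligase, rose by 1.29 ± 0.19 from below the floor (-0.63 as deposited). EIF2AK2, the RNA-activated kinase PKR, rose by 1.14 ± 0.12 (-0.30 as deposited). IFI27 went the other way, from 10.89, 10.74 and 10.74 to 9.19, 9.23 and 9.57. TAPBP, a chaperone of MHC class I, changed by -0.37 ± 0.08 but by 0.11 and 0.24 with median and olfactory receptor centring, so its direction depends on the scaling.

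Genes of mitosis were lower. Of 34 G2/M genes 27 fell and 0 rose, with a median of -0.92 that lay between -1.02 and -0.89 with the other 3 scalings, and 14 fell at least 2-fold. Above the floor were 28 members in untreated arrays and 18 with JK exosomes. KIF23, a kinesin of the midbody, fell from 6.93, 6.65 and 6.58 to 4.75, 4.80 and 4.54, below the floor. The kinase AURKB went from 7.36, 7.33 and 7.36 to 6.08, 6.18 and 6.16 and the proliferation marker MKI67 from 7.59, 7.02 and 7.20 to 5.87, 5.75 and 5.80. Every treated array of these 3 genes, which were named for a small p, lay below every untreated one.

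Earlier cell cycle steps moved less. G1 and S phase genes gave 12 lower and 5 higher of 23 (median -0.28, 0.02 with olfactory receptor centring), with CCND2, a D-type cyclin, at 9.98 ± 0.07 untreated and 8.98 ± 0.10 (SD, n = 3) with JK exosomes. DNA replication genes gave 15 lower and 4 higher of 36 (median -0.19, negative under every scaling). GINS2 and GINS3, subunits of the replicative helicase, changed by -1.40 ± 0.13 and -0.77 ± 0.09 and the clamp loader subunit RFC3 by -1.19 ± 0.10. Among the 57 histone genes that depend on replication, 21 fell and 9 rose (median -0.27), against 13 and 12 with olfactory receptor centring. H1-5 fell from 7.66, 6.83 and 6.94 to 5.03, 4.73 and 4.66 and H2BC9 from 8.41, 8.10 and 7.92 to 6.23, 6.49 and 6.09. Histone genes share sequence, so single members are uncertain.

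Stress programmes differed in direction. Of 25 ATF4 and amino acid stress genes 14 fell and 4 rose (median -0.35, 0.03 with olfactory receptor centring). The largest change in this list was a rise, that of VLDLR by 2.27 ± 0.13. SLC7A5, a transporter of large amino acids, fell from 8.17, 8.20 and 8.13 to 6.61, 6.72 and 6.63, and the glycyl-tRNA synthetase GARS1 changed by -1.01 ± 0.07. Unfolded protein response genes gave 9 higher and 0 lower of 19 (median 0.24, positive under every scaling). HSPA5, the endoplasmic reticulum chaperone BiP, rose by 0.57 ± 0.08, the stress sensor EIF2AK3 by 0.66 ± 0.09 and SEL1L, of the degradation machinery there, by 0.59 ± 0.08, each negative as deposited. NRF2 targets gave 9 lower and 4 higher of 17 (median -0.47, 0.09 with olfactory receptor centring); the haem oxygenase HMOX1 fell from 9.09, 9.60 and 8.92 to 7.74, 7.75 and 7.63, the cystine transporter SLC7A11 changed by -1.21 ± 0.10 and the factor NFE2L2 by -0.84 ± 0.09. Of 10 metallothioneins, metal-binding proteins with much shared sequence, 7 fell and 0 rose; MT1X changed by -1.92 ± 0.15.

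Of the lipid and glycan genes, ST8SIA6 and ACER2 were among the largest rises of the naming rule. ST8SIA6, which adds sialic acid to sialylated glycans, had the largest rise by the naming rule. It stood at 4.29, 3.96 and 4.08, below the floor, in untreated arrays and at 7.74, 7.69 and 8.01 with JK exosomes, a change of 3.70 ± 0.12. The size is therefore uncertain, and the lack of overlap between groups was a condition of the naming rule. Of 20 sialyltransferases 8 rose and 3 fell; ST8SIA4 rose by 1.00 ± 0.12 (-0.68 as deposited) and ST3GAL6 changed by -0.88 ± 0.09. ACER2, a ceramidase of the Golgi, rose from 6.50, 6.45 and 6.60 to 9.13, 9.18 and 9.21, 6.30-fold. Of 21 ceramide and sphingosine-1-phosphate genes 6 rose and 5 fell, and only ACER2 passed at 2-fold or more. SPHK1, which phosphorylates the sphingosine that ceramidases release, changed by -0.75 ± 0.08. Cholesterol synthesis gave 6 lower and 2 higher of 18 (median -0.13, positive under both centrings). That is 44.4% passing, against 48.6% of all genes. HMGCS1 changed by -1.28 ± 0.10, SQLE by -0.96 ± 0.11 and INSIG1 by -1.25 ± 0.14. SLC7A2, a cationic amino acid transporter, fell from 10.20, 10.09 and 10.33 to 6.95, 7.10 and 6.98. SLC1A1, a glutamate transporter, rose from 6.25, 5.99 and 6.03 to 8.28, 8.19 and 8.44. RAB23, a GTPase of Hedgehog signalling, changed by -2.57 ± 0.08.

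Genes of the cytoplasmic ribosome and small nucleolar RNAs leaned to higher, while other protein synthesis lists gave mixed counts. Of 60 cytoplasmic ribosomal protein genes 29 rose and 8 fell (median 0.25, positive under every scaling), and these genes have many near-identical copies that make single members uncertain. RPS6 rose from 9.94, 10.02 and 9.93 to 11.57, 11.62 and 11.60. EIF4B rose by 1.05 ± 0.12 at the probeset used (-0.20 as deposited), but another was called the opposite way (-1.08 ± 0.17). A further probeset was called the same way (1.39 ± 0.14), so the direction of EIF4B depends on the probeset. Of 61 translation initiation and elongation factors 25 rose and 12 fell (median 0.06), and of 32 aminoacyl-tRNA synthetases 10 rose and 5 fell (0.08). Mitochondrial ribosomal proteins gave 22 lower and 7 higher of 73 (median -0.10), but 16 higher and 12 lower with median centring and 9 and 3 with olfactory receptor centring. On the main scale 39.7% of them passed, against 48.6% of all genes. Of 112 C/D box small nucleolar RNAs 54 rose and 7 fell (median 0.32), and of 61 H/ACA box RNAs 27 rose and 2 fell (0.28), both positive under every scaling; 47 and 35 members were above the floor in untreated arrays. SNORD94 rose by 1.44 ± 0.10 (-0.39 as deposited). SNORA14A stood at 5.54, 7.63 and 4.96 and then at 8.88, 8.56 and 8.78. Its untreated arrays spread widely, and its change of 2.70 ± 0.50 became 3.54 without untreated replicate 2.

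Probesets named for microRNA genes gave 53 higher and 22 lower of 189, with 51 above the floor in untreated arrays. The share that passed was 39.7%, below the 48.6% of all genes. They read precursor or host transcripts, not mature microRNAs. MIR32 rose from 5.31, 5.23 and 5.07, below the floor, to 6.87 ± 0.13 (SD, n = 3; -0.19 as deposited). MIRLET7A2 fell from 6.75, 6.64 and 6.77 to 4.73, 4.38 and 4.03, below the floor. MIR570HG, a host transcript, rose by 2.33 ± 0.15 from below the floor. The mature 5p sequences encoded by the former pair are shown from RefSeq on GRCh38.p14 (miR-32-5p at chr9:109046272-109046293, let-7a-5p at chr11:122146568-122146589, both on the minus strand), with the seed, bases 2 to 8, in capitals.
miR-32-5p: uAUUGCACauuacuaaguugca
let-7a-5p: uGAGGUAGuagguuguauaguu
The seeds differ, and the let-7a sequence is also encoded by other genes.

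**Figure D4:**
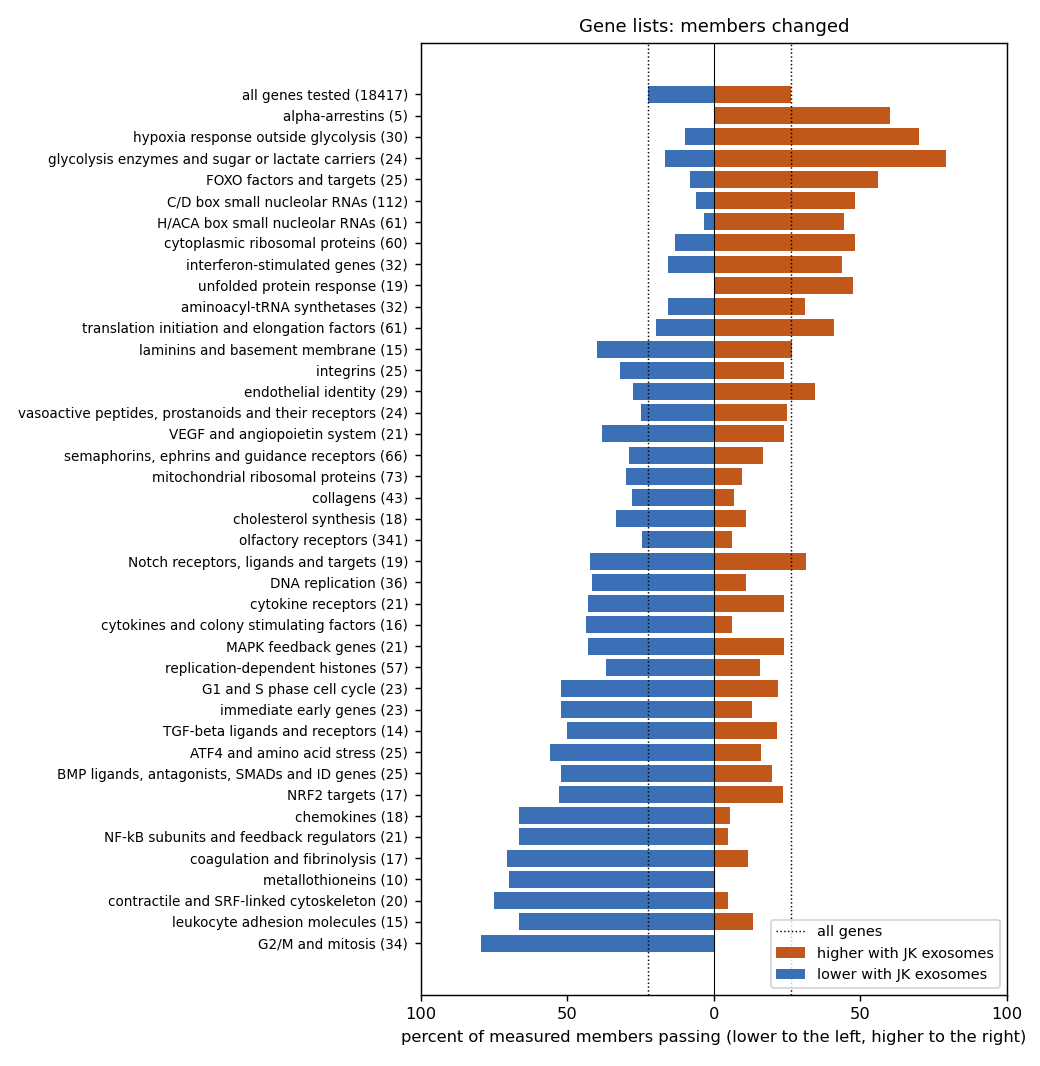
Percent of each list's measured members (number in brackets) that passed as higher (right) or lower (left) with JK exosomes, ordered by median log2 fold change, with all genes tested on top and dotted lines at their 26.2% and 22.4%. Glycolysis, hypoxia and FOXO lists extend right, and mitosis, adhesion and contractile lists extend left.

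JK exosome RNA is set beside these changes on the deposited scale, where the floor lay at 6.82 and 764 genes (4.15%) stood above it. By the floor's definition 17 of 341 olfactory receptor genes did too. So did 33 of 121 genes of taste receptors, defensins and keratin-associated proteins. A place above or below this floor therefore does not settle whether the vesicles carried a transcript. Of the 418 genes higher at least 2-fold, 7 were above that floor in exosome RNA, and of the 636 lower ones, 20. ST8SIA6 averaged 3.68 there, ARRDC3 and BMP4 both 3.71 and IFIT1 3.94, all below it. SLC2A1 averaged 6.48, also below. RPS6 at 7.35 and MIR570HG at 7.08 were above it, and ribosomal protein genes were above it in 35 of 60 cases. The level of a transcript in the vesicles and its change in the cells were not tested against each other.

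The levels in HUVEC with JINB8 exosomes are given side by side for the genes that moved most; both treatments share the untreated arrays. SELE averaged 6.93 with JINB8 exosomes and 7.16 with JK. TAGLN averaged 4.53 and 4.43, PTGS2 7.96 and 7.81 and CD34 6.08 and 5.80. SLC2A1 averaged 11.65 and 11.55, ADM 10.34 and 10.25, ST8SIA6 7.94 and 7.81 and BMP4 10.80 and 10.72. TXNIP averaged 9.76 and 10.37 and IFIT1 8.18 and 8.38. The difference between both exosome treatments was not tested here.

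**Figure D5:**
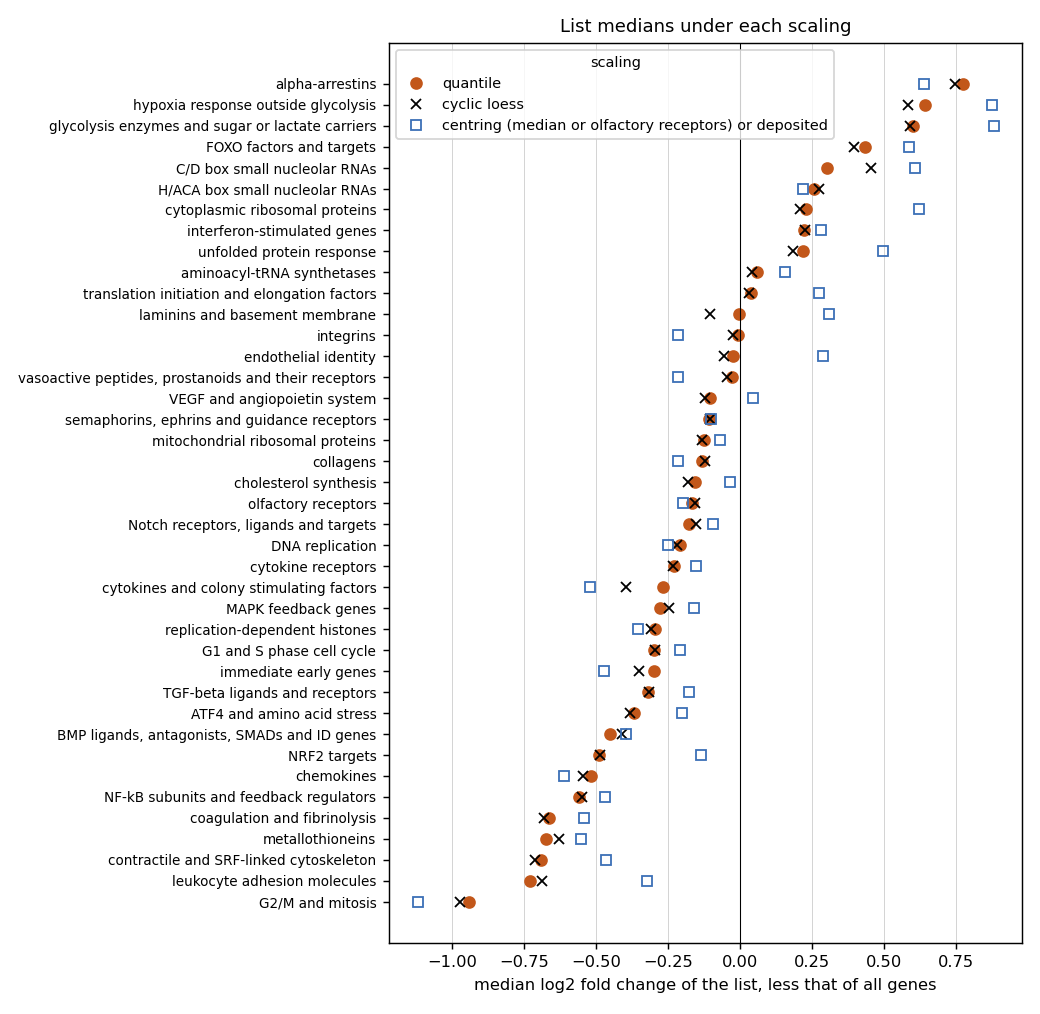
Median log2 fold change of each gene list less that of all genes (horizontal), after quantile normalization (circles), cyclic loess (crosses) and plain centring of each array or no scaling (squares, which coincide after the subtraction). Glycolysis and hypoxia lists lie near 0.6 on the quantile scale and 0.88 and 0.87 with centring, G2/M genes at -0.94 and -1.12, and endothelial identity genes at -0.02 and 0.29.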

How the data were processed

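Biotin-labelled total RNA was hybridised to Affymetrix whole-transcript arrays. The authors deposited log2 probeset values made with Affymetrix Expression Console, per the submitters' processing notes; the sources used here do not give its version, the background correction or which arrays were normalized together. The log2 scale was read from the values. No array was dropped and no value was missing or imputed.

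Of 33297 probesets, 19460 had 1 gene symbol in the platform annotation, 1754 had several and 12083 were not listed. By Entrez identifier 19429 matched the gene reference. Where a gene had several probesets, that with the highest mean of the 15 arrays was used (769 of 18417 genes had more than 1). Of 150 genes named with values, which leave out SELP, 1 had another probeset called the opposite way.

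Values of the 9 HUVEC arrays were quantile-normalized and fitted in 1 limma model (lmFit and eBayes, 6 residual degrees of freedom; R 4.3.3, limma 3.58.1), contrast JK-treated minus untreated, p adjusted by Benjamini-Hochberg across all 18417 genes and called under 0.05. Errors beside fold changes are limma's moderated standard errors, n = 3 per group. The script was tested on simulated data. Lists have counts and medians and no test. Precision is limited by the number of arrays.

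The text names the 15 largest rises and 15 largest falls (log2) of genes that passed, did not overlap between groups and exceeded the median level of all genes in the higher group, then up to 3 members per list with the smallest p, all members of lists of 6 or fewer, and the cell type markers. LOC, ORF and blank symbols were passed over. Not all of the 66 lists tabulated are given. Those of p53 targets, YAP and TEAD targets and heat shock proteins, for example, are left out with the members this rule picks from them. SELP and DLL4 were named outside the rule. Members and lists were chosen with earlier results of these data known. Promoter windows were 300 bases, 1 per gene, on both strands.

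The main fit did not pair samples by replicate number. Deviations of same-numbered arrays from their group means correlated at 0.24, -0.08 and -0.00, and those of differently numbered arrays at -0.14 to 0.14. With 3 arrays per group these values cannot settle whether the numbers pair the samples. Alternatives were other scalings, gene and probeset filters, fits and leaving out each array.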

Additional observations from a re-analysis of the deposited data

How the results depend on the processing

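On deposited values with no further normalization 18319 genes changed (30 higher, 18289 lower, 16797 at least 2-fold). Olfactory receptor centring gave 1490 lower genes and 1613 at least 2-fold. Testing all probesets gave 6342 lower and 1842 at least 2-fold. An unadjusted p under 0.05 with at least 1.5-fold gave 3378 (1670 higher, 1708 lower). The other settings kept all 4 counts within 1.5 times. Leaving out each array gave 7801 to 8867 changed genes, 4188 to 4777 higher, 3597 to 4090 lower and 973 to 1101 at least 2-fold. With the replicate number as a block (replicate block) 8618 genes changed, 4638 higher and 3980 lower; 8437 of the 8950 calls were kept in the same direction and 0 changed sign. Of the 8950 calls, 241 changed sign with median centring, 610 with olfactory receptor centring, 3 with cyclic loess and 4770 on deposited values. As deposited, rises reversed for ANKRD37 -0.14, ARRDC4 -1.05, CDKN1B -0.75, DDIT4 -0.12, DLL4 -0.28, EIF2AK2 -0.30, EIF2AK3 -0.93, EIF4B -0.20, ERG -0.80, FOXO4 -0.87, GATA3 -0.82, HERC5 -0.63, HSPA5 -0.65, ITGB5 -0.42, KDM3A -0.69, KDM4C -0.66, LAMA4 -0.72, LAMC1 -0.67, MIR32 -0.19, MMRN2 -0.10, NID1 -0.53, PECAM1 -0.71, PNRC1 -0.66, SEL1L -0.90, SNORD94 -0.39, ST8SIA4 -0.68, TFPI -0.17, TGFBR3 -0.16 and TIMP3 -0.24 (log2), the whole table being shifted down. RGS5 turned to 0.044 and 0.17, and TAPBP to 0.11 and 0.24, with median and olfactory receptor centring. GARS1, MMP14, NFE2L2, SPHK1, SQLE and ST3GAL6 did not pass with olfactory receptor centring. Relative to the median of all genes, list medians under plain centring or as deposited moved by more than the spread between arrays in 15 of 40 lists: endothelial identity (-0.02 to 0.29), leukocyte adhesion (-0.73 to -0.32), vasoactive peptides and prostanoids (-0.03 to -0.22), contractile (-0.69 to -0.47), laminins (-0.00 to 0.31), integrins (-0.01 to -0.21), glycolysis (0.60 to 0.88), hypoxia (0.64 to 0.87), FOXO (0.43 to 0.59), unfolded protein response (0.22 to 0.49), NRF2 (-0.49 to -0.14), cholesterol synthesis (-0.16 to -0.037), cytoplasmic ribosomal proteins (0.23 to 0.62), translation factors (0.037 to 0.28) and C/D box small nucleolar RNAs (0.30 to 0.61). The cause was not tested. Without detection calls, signal near the floor limits the sizes of changes.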
